A study of Mus musculus with 12 samples.

Results

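The type I interferon response was followed through 44 interferon-stimulated genes in 2 populations of myeloid-derived suppressor cells from tumour-bearing mice, with or without lymphodepleting chemotherapy. The genes were taken from a list of names, with no threshold on their values, but the list was chosen with earlier results of these data known. All 44 had a row in the deposited table of 23479 genes, and all 44 were among the 11122 genes that reached the minimum level for testing, a mean of 10 normalized counts over the 12 libraries. I830012O16Rik is the deposited symbol of Ifit3b, and Pyhin1 is now listed as Ifi209.

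Every mouse was of strain C57BL/6 and carried an established B16 tumour, a mouse melanoma line. The 4 groups were M-MDSC LD, M-MDSC Ctrl, PMN-MDSC LD and PMN-MDSC Ctrl, with 3 libraries each. LD mice had received fludarabine, a nucleoside analogue, together with cyclophosphamide, which cross-links DNA, and Ctrl mice were left untreated. Monocytic (M-MDSC) and polymorphonuclear, neutrophil-like (PMN-MDSC) cells were sorted from the spleen, which in LD mice was taken 7 days after treatment. When the spleens of Ctrl mice were taken is not stated. Neither sex nor age is stated, and nothing says whether replicates were separate mice, so that the p-values measure the spread between these libraries, which may be technical. In sorted bulk RNA, fewer cells of a type and less RNA per cell cannot be told apart. The chemokine receptor genes matched the sorts, with Ccr2 at 10989 ± 1052 normalized counts in M-MDSC LD and 302 ± 122 in PMN-MDSC LD, and Cxcr2 at 56.6 ± 35.5 in M-MDSC LD and 30074 ± 2185 in PMN-MDSC LD (SD, n = 3 each). Ccr2 and Cxcr2 were picked after their values were seen. Of 6 listed monocyte markers, 5 passed as higher in M-MDSC than in PMN-MDSC in Ctrl and 1 as lower. In LD, 4 of the 6 passed as higher and 1 as lower. All 6 neutrophil markers analysed passed as lower in M-MDSC in both treatments. Over all tested genes 38.8% passed as higher and 36.8% as lower in M-MDSC in Ctrl, and 38.8% and 36.1% in LD. The neutrophil surface marker Ly6g was not analysed here.

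Type I interferons bind a receptor shared by nearly all nucleated cells. The receptor activates the kinases JAK1 and TYK2 and, through them, a complex with STAT2 and IRF9 that binds interferon-stimulated response elements in promoters. The genes it turns on encode proteins that bind or degrade viral RNA, sense nucleic acids, block viral entry or release, and adjust the response itself. In neutrophils and monocytes many of these genes are transcribed at a low level without infection, as a tonic response.

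The response element was searched for as TTTC, any 2 bases and TTTC again, on both strands, in RefSeq promoter windows of build GRCm38.p6, 250 bases before to 50 after a gene's start. An entry existed for 35 of the 44 genes, and 18 of these 35 (51.4%) held the letters, against 3.94% of the tested genes with an entry and 3.44% of all promoters in the reference table. The letters TTCNNNGAA of the gamma-activated sequence, which read the same on both strands and may overlap the other pattern, occurred in 22.9% of the 35 genes and in 8.35% of the tested genes. Among the genes that rose after LD in both populations, 5 of 7 with an entry (71.4%) held the TTTC pair, as did 8 of 17 (47.1%) of those that rose in neither. The 200 bases before the start follow for those 5 genes, because they are the genes of the shared LD response whose window held the TTTC pair. Capitals mark each match to the TTTC pair or to its reverse complement.

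Ifit1, chr19:34640689-34640888, plus strand: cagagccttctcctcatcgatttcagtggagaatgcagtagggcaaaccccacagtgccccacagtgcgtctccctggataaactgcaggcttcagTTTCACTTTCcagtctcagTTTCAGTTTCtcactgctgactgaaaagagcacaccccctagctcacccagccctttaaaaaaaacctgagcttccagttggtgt
Ifit3, chr19:34583329-34583528, plus strand: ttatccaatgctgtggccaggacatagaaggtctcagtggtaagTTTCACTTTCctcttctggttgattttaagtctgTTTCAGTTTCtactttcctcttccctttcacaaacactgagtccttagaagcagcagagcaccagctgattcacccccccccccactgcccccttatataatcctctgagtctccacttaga
I830012O16Rik (Ifit3b), chr19:34607757-34607956, plus strand: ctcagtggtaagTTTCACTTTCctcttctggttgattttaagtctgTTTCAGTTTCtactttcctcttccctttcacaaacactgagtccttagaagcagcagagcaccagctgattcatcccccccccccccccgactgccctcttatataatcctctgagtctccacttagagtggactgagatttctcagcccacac
Oas3, chr5:120777660-120777859, minus strand: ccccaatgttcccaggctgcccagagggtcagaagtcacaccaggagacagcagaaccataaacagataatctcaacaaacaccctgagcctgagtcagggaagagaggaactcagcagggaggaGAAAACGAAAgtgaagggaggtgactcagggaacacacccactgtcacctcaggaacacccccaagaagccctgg
Rsad2, chr12:26456453-26456652, minus strand: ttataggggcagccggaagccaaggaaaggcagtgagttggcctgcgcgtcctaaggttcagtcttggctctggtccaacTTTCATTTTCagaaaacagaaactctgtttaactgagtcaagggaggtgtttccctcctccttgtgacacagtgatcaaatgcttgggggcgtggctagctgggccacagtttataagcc

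In Ifit1 the 2 matches began 104 and 85 bases before the start. The windows of Ifit3 and I830012O16Rik held the same 2 matches, since these neighbouring genes are recent copies with an unbroken shared run of 169 bases in the promoter window. Rsad2 had 1 match, 120 bases before its start, and Oas3 had 1 on the other strand, 75 bases before its start. The window of Ifit2 held no match, which says only that these letters are not in those 300 bases.

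After LD, more of these genes rose than fell in both populations. In M-MDSC, 10 of the 44 genes (22.7%) rose and 0 fell, where 2.54% of all tested genes rose and 0.468% fell (limma on log2(normalized count + 1), adjusted p under 0.05 over 11122 genes). In PMN-MDSC, 20 of the 44 (45.5%) rose and 1 fell, where 7.17% of tested genes rose and 8.51% fell. The median log2 difference, LD minus Ctrl, was 0.15 in M-MDSC and 0.38 in PMN-MDSC over the 44 genes, against -0.04 and -0.05 over all tested genes. The 3 LD libraries all lay above the 3 Ctrl libraries for 18 genes in M-MDSC (10.6% of tested genes did so) and for 23 in PMN-MDSC (14.1%). They all lay below for 4 genes in M-MDSC (12.4% of tested genes) and for 4 in PMN-MDSC (17.8%).

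The rising genes fell into 3 sets. Ifit1, Ifit2, Ifit3, I830012O16Rik, Oas3, Rsad2, Irf7 and Rtp4 rose in both populations. Oasl1 and Oasl2 passed in M-MDSC and not in PMN-MDSC, and 12 genes passed in PMN-MDSC and not in M-MDSC. Ifitm1 fell in PMN-MDSC, and 21 genes passed in neither. How many of all tested genes passed in both populations or in 1 alone was not counted. More of all tested genes passed in PMN-MDSC (1745) than in M-MDSC (335), so the split is not shown to be particular to these genes. Across the 44 genes the LD differences of the populations had a Pearson r of 0.51, against 0.25 over all tested genes. Of the 44, 31 were positive in both and 5 negative in both, where 2770 and 3999 of the 11122 tested genes were. These are descriptions across genes that share libraries.

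**Figure D1:**
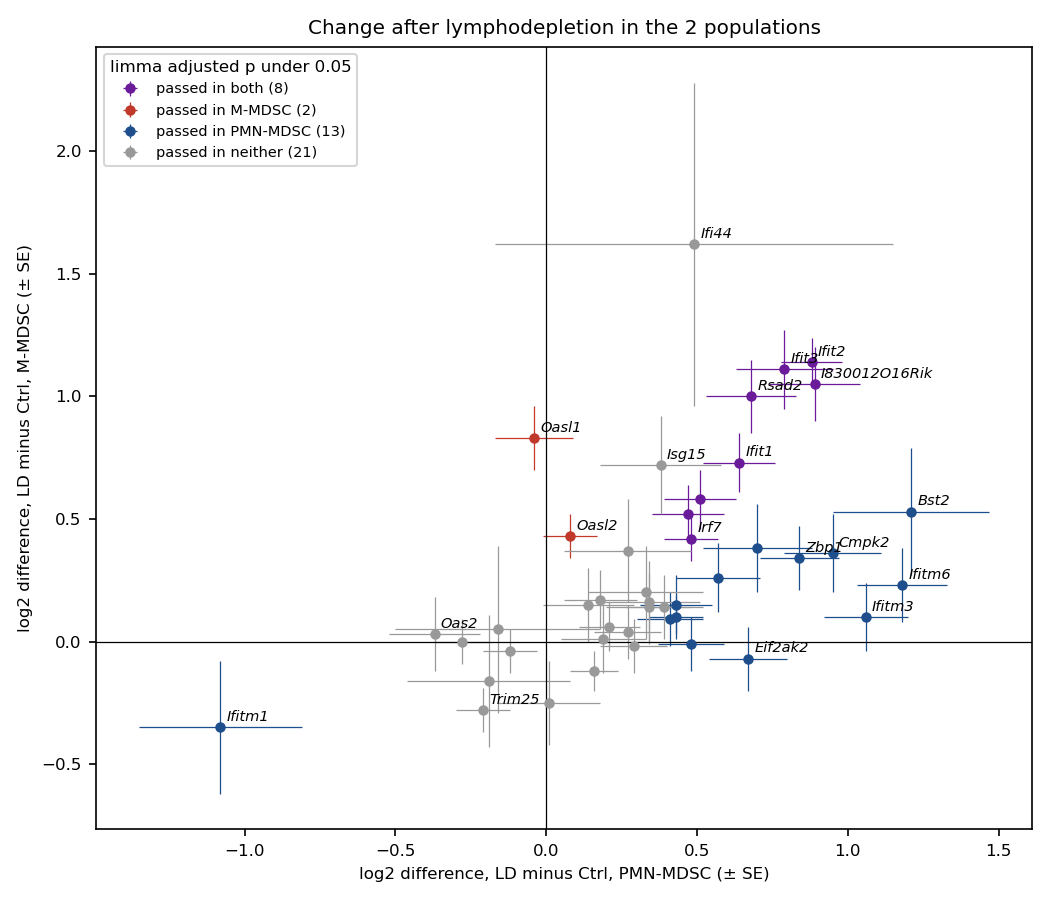
Each point is 1 of 44 interferon-stimulated genes, placed by its log2 difference, LD minus Ctrl, in PMN-MDSC (x axis) and M-MDSC (y axis), with bars of 1 SE. The IFIT genes and Rsad2 stand high on both axes, Oasl1 is high on the y axis alone, Ifitm3, Ifitm6 and Bst2 are highest on the x axis, and Ifitm1 lies far to the left.

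The IFIT proteins bind viral RNA and block its translation, and their genes lie in a cluster on chromosome 19. All 4 rose in both populations, where 2.54% of all tested genes rose in M-MDSC and 7.17% in PMN-MDSC. Ifit2 had 1481, 1500.4 and 1362 normalized counts in M-MDSC LD, against 656, 590.4 and 726 in M-MDSC Ctrl. Its PMN-MDSC values were 2349, 2103 and 2283 in LD, against 1230.2, 1107 and 1325 in Ctrl. Every LD library stood well above every Ctrl library of its population. The log2 difference was 1.14 ± 0.1 (SE) in M-MDSC (adjusted p = 8.3e-05), a 2.21-fold change, and 0.88 ± 0.1 in PMN-MDSC (adjusted p = 1.3e-04).

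Ifit3 had 599, 635 and 767 normalized counts in M-MDSC LD, against 316, 244 and 378 in M-MDSC Ctrl. In PMN-MDSC it had 4677, 4105 and 4371 in LD, against 2504, 2096 and 3077 in Ctrl. The groups did not overlap in either population, and the log2 differences were 1.11 ± 0.16 in M-MDSC (adjusted p = 0.00152) and 0.79 ± 0.16 in PMN-MDSC (adjusted p = 0.00562). I830012O16Rik, its near copy, had 145, 194 and 174 in M-MDSC LD, against 77.8, 67.9 and 102 in M-MDSC Ctrl. Its PMN-MDSC values were 3253, 3342 and 3228 in LD, against 1827, 1580.3 and 1893 in Ctrl. It followed Ifit3, with log2 differences of 1.05 ± 0.15 in M-MDSC (adjusted p = 0.00129) and 0.89 ± 0.15 in PMN-MDSC (adjusted p = 0.00181). Of the 50-base windows in transcripts of Ifit3, 51.2% also occur in I830012O16Rik or another gene, and 45.0% of those of I830012O16Rik occur elsewhere, so the split of reads between these genes is uncertain.

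Ifit1 had 401, 456 and 359.6 normalized counts in M-MDSC LD, against 242, 244 and 245 in M-MDSC Ctrl. In PMN-MDSC it had 4169, 3479 and 3279 in LD, against 2539, 2083 and 2370.4 in Ctrl. Its log2 difference was 0.73 ± 0.12 in M-MDSC (adjusted p = 0.00302) and 0.64 ± 0.12 in PMN-MDSC (adjusted p = 0.00306), with no overlap. None of the 4 IFIT changes passed the test of a difference between the populations.

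Oligoadenylate synthetases make a second messenger that switches on the RNA-degrading enzyme RNase L, an activity that OASL1 lacks. Of the 6 genes on chromosome 5, 3 rose in each population and only Oas3 was shared, where 2.54% of all tested genes rose in M-MDSC and 7.17% in PMN-MDSC. Oas3 had 2328, 2805 and 2971 normalized counts in M-MDSC LD, against 1866, 1696 and 2084 in M-MDSC Ctrl. It had 9811, 11007 and 12537 in PMN-MDSC LD, against 8977, 7070.1 and 8066 in PMN-MDSC Ctrl. The LD libraries were above the Ctrl libraries in both, by 0.52 ± 0.12 on the log2 scale in M-MDSC (adjusted p = 0.0348) and 0.47 ± 0.12 in PMN-MDSC (adjusted p = 0.0218). In M-MDSC the call was lost without LD replicate 2 or 3 (adjusted p = 0.0903 and 0.144), Ctrl replicate 1 or 2 (0.118 and 0.142) or PMN-MDSC Ctrl replicate 3 (0.0525), and in PMN-MDSC without its LD replicate 3 (0.0843) or Ctrl replicate 2 or 3 (0.0951 and 0.0622). The M-MDSC call of Oas3 was also lost with no minimum level (adjusted p = 0.0652) and under upper-quartile scaling (0.0611).

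Oasl1, which restrains translation of Irf7 mRNA in mice, had 289, 309 and 295 normalized counts in M-MDSC LD, against 173, 135 and 198 in M-MDSC Ctrl. Its PMN-MDSC values were 1426, 1586 and 1408 in LD, against 1597, 1391 and 1561 in Ctrl. The groups were apart in M-MDSC, by 0.83 ± 0.13 (adjusted p = 0.00283), and interleaved in PMN-MDSC, with a log2 difference of -0.04 ± 0.13 (adjusted p = 0.862). Oasl2 had 2662, 3103 and 2837 in M-MDSC LD, against 2132, 2010.4 and 2214 in M-MDSC Ctrl. It had 17451, 16978 and 18648 in PMN-MDSC LD, against 17761, 15059 and 17504 in PMN-MDSC Ctrl. Its log2 difference was 0.43 ± 0.09 in M-MDSC (adjusted p = 0.0178) and 0.08 ± 0.09 in PMN-MDSC (adjusted p = 0.597). The M-MDSC call of Oasl2 was lost without LD replicate 2 or 3 (adjusted p = 0.0675 and 0.0589) or Ctrl replicate 1 or 2 (0.0667 and 0.0726).

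Oas1a had 1238, 1175 and 1193 normalized counts in PMN-MDSC LD, against 975, 749.7 and 1017 in PMN-MDSC Ctrl. Oas1g had 655, 449 and 435 in PMN-MDSC LD, against 304, 281 and 349.6 in PMN-MDSC Ctrl. Both rose without overlap, Oas1a by 0.41 ± 0.11 (adjusted p = 0.0234) and Oas1g by 0.70 ± 0.18 (adjusted p = 0.0164). The calls were lost without PMN-MDSC Ctrl replicate 2 (adjusted p = 0.0977 for Oas1a and 0.0655 for Oas1g), and that of Oas1a also without LD replicate 3 (0.0533) and with PMN-MDSC fitted alone (0.0564). In M-MDSC the log2 differences were 0.09 ± 0.11 for Oas1a (adjusted p = 0.859) and 0.38 ± 0.18 for Oas1g (adjusted p = 0.372). These genes share 57.6% and 45.7% of their 50-base windows with other genes, mostly with each other.

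Oas2 did not follow them. It had 2597, 2355 and 2249 normalized counts in M-MDSC LD, against 2543, 1802 and 2839 in M-MDSC Ctrl. In PMN-MDSC it had 5153, 5338 and 4922 in LD, against 6543, 5722 and 7734 in Ctrl, so that all 3 LD libraries were below the Ctrl libraries. The PMN-MDSC log2 difference of -0.37 ± 0.15 did not pass (adjusted p = 0.104).

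Rsad2 encodes viperin, which makes a chain-terminating nucleotide, and its neighbour Cmpk2 on chromosome 12 encodes a nucleotide kinase. Rsad2 had 565, 780.3 and 541 normalized counts in M-MDSC LD, against 267, 329 and 335 in M-MDSC Ctrl. It had 6981, 9111 and 8654 in PMN-MDSC LD, against 5715, 4717 and 4988 in PMN-MDSC Ctrl. The groups were apart in both populations, and Rsad2 rose by 1 ± 0.15 on the log2 scale in M-MDSC (adjusted p = 0.00155) and by 0.68 ± 0.15 in PMN-MDSC (adjusted p = 0.00733). Cmpk2 had 535, 691 and 607 in M-MDSC LD, against 431, 509 and 486 in M-MDSC Ctrl. It had 2617, 4135 and 4219.5 in PMN-MDSC LD, against 1968, 1686 and 1899 in PMN-MDSC Ctrl. Cmpk2 passed in PMN-MDSC, at 0.95 ± 0.16 (adjusted p = 0.00181), and not in M-MDSC, at 0.36 ± 0.16 (adjusted p = 0.346), although the groups were apart there too.

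ISG15 is a ubiquitin-like protein that is attached to other proteins by ligases such as HERC6 in mice and is removed by USP18, which also damps signalling at the receptor. Usp18 was the 1 gene of these 4 to rise, and it did so in PMN-MDSC, where 7.17% of all tested genes rose. It had 1240.3, 1325 and 1324 normalized counts in PMN-MDSC LD, against 927, 686 and 1034 in PMN-MDSC Ctrl, a log2 difference of 0.57 ± 0.14 (adjusted p = 0.0134, and 0.0576 without PMN-MDSC Ctrl replicate 2). Its M-MDSC values were 499, 469.6 and 512 in LD, against 462, 363 and 418 in Ctrl. Isg15 itself averaged 246 ± 65 in M-MDSC LD and 147 ± 24.9 in M-MDSC Ctrl (SD, n = 3 each). Its 3 LD libraries lay above the Ctrl libraries, but the log2 difference of 0.72 ± 0.2 did not pass (adjusted p = 0.0651), whereas DESeq2 gave an adjusted p of 0.0147. In PMN-MDSC Isg15 averaged 1009 ± 83.6 in LD and 789 ± 184 in Ctrl (adjusted p = 0.213).

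Herc6 averaged 765 ± 84.9 normalized counts in M-MDSC LD and 694 ± 84.3 in M-MDSC Ctrl, and 1419 ± 176 in PMN-MDSC LD and 1124 ± 191 in PMN-MDSC Ctrl. Trim25, the ubiquitin ligase that activates the RNA sensor RIG-I, leaned the other way. It had 1787, 2323 and 2216 in M-MDSC LD, against 2597, 2562 and 2482 in M-MDSC Ctrl. In PMN-MDSC it had 6093, 5695 and 5657 in LD, against 6779, 6569 and 6766 in Ctrl. All LD libraries were below the Ctrl libraries in both populations, and neither log2 difference passed (-0.28 ± 0.09 in M-MDSC, adjusted p = 0.141, and -0.21 ± 0.09 in PMN-MDSC, adjusted p = 0.152).

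Of the 10 sensors of RNA and DNA, 0 passed in M-MDSC and 3 rose in PMN-MDSC, where 2.54% and 7.17% of all tested genes rose. Zbp1, a receptor for left-handed nucleic acids that can start cell death, had 2149, 1784 and 2148 normalized counts in PMN-MDSC LD, against 1334, 904 and 1202 in PMN-MDSC Ctrl. Its M-MDSC values were 1896, 2073 and 2089 in LD, against 1483, 1564 and 1754 in Ctrl. The groups were apart in both, but the test passed in PMN-MDSC (0.84 ± 0.13, adjusted p = 0.00116) and not in M-MDSC (0.34 ± 0.13, adjusted p = 0.235). Eif2ak2 encodes PKR, the kinase that stops translation on double-stranded RNA. It had 1729, 2072 and 2154 in PMN-MDSC LD, against 1140.5, 1078 and 1552 in PMN-MDSC Ctrl. In M-MDSC it had 1558, 1659 and 1696 in LD, against 1681, 1623 and 1866 in Ctrl. Eif2ak2 rose by 0.67 ± 0.13 in PMN-MDSC (adjusted p = 0.00388), and its M-MDSC groups overlapped (-0.07 ± 0.13, adjusted p = 0.932).

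Ifi204 encodes p204, a DNA-binding protein of the PYHIN family. It had 3549, 2971 and 3330.5 normalized counts in PMN-MDSC LD, against 2653, 2054 and 2643 in PMN-MDSC Ctrl. Its M-MDSC values were 3699.6, 4335 and 4502 in LD, against 3433, 3749 and 4129 in Ctrl, with overlap. The PMN-MDSC rise was 0.43 ± 0.12 (adjusted p = 0.0257), and it was lost without PMN-MDSC LD replicate 1 or 3 (adjusted p = 0.0575 and 0.0677) or Ctrl replicate 2 (0.115). Of its 50-base windows, 20.0% occur in other genes, mainly of the same family.

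The other 7 sensors passed in neither population. Adar, an RNA-editing enzyme, had 2348, 2645 and 2599 normalized counts in M-MDSC LD, against 2411, 2219 and 2644 in M-MDSC Ctrl. It had 4040.1, 4461 and 4851 in PMN-MDSC LD, against 4108, 3469 and 4005 in PMN-MDSC Ctrl. The groups overlapped in both populations. Ddx58, which encodes RIG-I, averaged 1569 ± 133 in M-MDSC LD and 1398 ± 111 in M-MDSC Ctrl, and 4650.1 ± 712 in PMN-MDSC LD and 4099 ± 431 in PMN-MDSC Ctrl. Ifih1, which encodes MDA5, averaged 1473 ± 147 in M-MDSC LD and 1465 ± 111 in M-MDSC Ctrl, and 2030.0 ± 343 in PMN-MDSC LD and 1776 ± 330.1 in PMN-MDSC Ctrl. Dhx58, which encodes LGP2, came closest to passing, with 987 ± 44.8 in PMN-MDSC LD and 755 ± 90.4 in PMN-MDSC Ctrl (0.39 ± 0.13, adjusted p = 0.0626). It averaged 1039.6 ± 168 in M-MDSC LD and 943 ± 133 in M-MDSC Ctrl. Ddx60, Ifi203 and Pyhin1 had log2 differences of 0.37, 0.05 and -0.16 in M-MDSC, and of 0.27, -0.16 and -0.19 in PMN-MDSC.

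Among the transcription factors, Irf7, the factor that amplifies interferon production, rose in both populations. It had 3061, 3185 and 3161 normalized counts in M-MDSC LD, against 2303, 2147 and 2600.1 in M-MDSC Ctrl. It had 6122, 6138 and 6211 in PMN-MDSC LD, against 4824, 4073 and 4335 in PMN-MDSC Ctrl. The LD libraries lay close together and above all Ctrl libraries. The log2 differences were 0.42 ± 0.09 in M-MDSC (adjusted p = 0.0172) and 0.48 ± 0.09 in PMN-MDSC (adjusted p = 0.0031). The M-MDSC call was lost without LD replicate 3 (adjusted p = 0.0633) or Ctrl replicate 1 or 2 (0.0766 and 0.0754).

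The 2 members that belong to the activating complex did not pass in either population. Irf9 had 1432, 1483 and 1519 normalized counts in M-MDSC LD, against 1696, 1604 and 1523 in M-MDSC Ctrl. It had 3178, 3713 and 3475 in PMN-MDSC LD, against 3275, 2952 and 3010.5 in PMN-MDSC Ctrl. Its M-MDSC LD libraries were the lower ones (-0.12 ± 0.08, adjusted p = 0.665), and its PMN-MDSC groups overlapped. Stat2 averaged 2239 ± 168 in M-MDSC LD and 2185 ± 244 in M-MDSC Ctrl, and 1813 ± 62.1 in PMN-MDSC LD and 1514 ± 233 in PMN-MDSC Ctrl.

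DTX3L and PARP9 form a complex that modifies histones and promotes interferon-driven transcription, and PARP14 is a related ADP-ribosyltransferase. Dtx3l had 4209, 4554 and 4675 normalized counts in PMN-MDSC LD, against 3634, 3191 and 3173 in PMN-MDSC Ctrl. In M-MDSC it had 2914, 3246 and 3250.0 in LD, against 2743, 3121 and 2897 in Ctrl. It rose in PMN-MDSC (0.43 ± 0.09, adjusted p = 0.00594) and not in M-MDSC (0.10 ± 0.09, adjusted p = 0.773). Parp14 had 5706, 6635 and 6165 in M-MDSC LD, against 6591, 5552 and 6604 in M-MDSC Ctrl. It had 8052, 9937 and 10229.7 in PMN-MDSC LD, against 8492, 7029.7 and 7467 in PMN-MDSC Ctrl, with overlap in both. Parp9, which shares its promoter region with Dtx3l, averaged 1298 ± 70.1 in M-MDSC LD and 1336 ± 11.5 in M-MDSC Ctrl, and 1755 ± 185 in PMN-MDSC LD and 1896 ± 127 in PMN-MDSC Ctrl. Neither Parp14 nor Parp9 passed.

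Of the 6 membrane protein genes, 1 rose in M-MDSC, and 4 rose and 1 fell in PMN-MDSC. Over all tested genes 2.54% rose in M-MDSC, and 7.17% rose and 8.51% fell in PMN-MDSC. The IFITM proteins block viral fusion with cell membranes, and their genes sit side by side on chromosome 7. In PMN-MDSC, Ifitm3 and Ifitm6 rose, Ifitm1 fell and Ifitm2 did not pass. Ifitm3 had 5237, 4670.0 and 5609 normalized counts in PMN-MDSC LD, against 3076, 2089 and 2337 in PMN-MDSC Ctrl. Ifitm6 had 4346, 3037 and 3639 in PMN-MDSC LD, against 1528, 1464 and 1829 in PMN-MDSC Ctrl. Both were above all Ctrl libraries, Ifitm3 by 1.06 ± 0.14 (adjusted p = 3.5e-04) and Ifitm6 by 1.18 ± 0.15 (adjusted p = 3.3e-04), a 2.27-fold change. Ifitm1 had 4991, 2128 and 2105 in PMN-MDSC LD, against 7252, 5582 and 5267 in PMN-MDSC Ctrl. LD replicate 1 lay near the Ctrl libraries and the other 2 far below, with a log2 difference of -1.08 ± 0.27 (adjusted p = 0.0152). That fall did not pass without PMN-MDSC LD replicate 2 or 3 (adjusted p = 0.0615 and 0.0671) or Ctrl replicate 1 (0.0602).

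In M-MDSC none of the 4 IFITM genes passed. Ifitm3 had 4289, 5169 and 5026 normalized counts in M-MDSC LD, against 4135, 5250.3 and 4211 in M-MDSC Ctrl. Ifitm6 had 692, 864 and 964 in M-MDSC LD, against 619, 809 and 710.2 in M-MDSC Ctrl. Ifitm1 had 72.4, 58.6 and 55.2 in M-MDSC LD, against 63.6, 91.9 and 84.7 in M-MDSC Ctrl. All 3 overlapped between the groups. Ifitm2 had 1559.7, 1592 and 1313 in M-MDSC LD, against 1593, 2117 and 1629 in M-MDSC Ctrl, where the LD libraries were lower without passing (-0.25 ± 0.17, adjusted p = 0.631). It had 6256, 4457 and 4285 in PMN-MDSC LD, against 6151, 4520.3 and 4199.6 in PMN-MDSC Ctrl. Of the 50-base windows of Ifitm2, 48.5% occur in other genes.

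Bst2 encodes tetherin, which holds budding virus at the cell surface. It had 92, 92.7 and 116 normalized counts in PMN-MDSC LD, against 64.3, 37.8 and 31.9 in PMN-MDSC Ctrl. Its M-MDSC values were 277, 408 and 342 in LD, against 216, 259 and 230.0 in Ctrl. The groups were apart in both, and the test passed in PMN-MDSC (1.21 ± 0.26, adjusted p = 0.00673) and not in M-MDSC (0.53 ± 0.26, adjusted p = 0.407). Rtp4, a transporter-like protein that binds nucleic acids, had 618, 689 and 605 in M-MDSC LD, against 459.8, 355 and 468 in M-MDSC Ctrl. It had 4175, 4259.7 and 4287 in PMN-MDSC LD, against 3359, 2592 and 3025 in PMN-MDSC Ctrl. Rtp4 rose by 0.58 ± 0.12 in M-MDSC (adjusted p = 0.0135) and 0.51 ± 0.12 in PMN-MDSC (adjusted p = 0.0111). These calls were lost without M-MDSC Ctrl replicate 2 (adjusted p = 0.0541) and without PMN-MDSC Ctrl replicate 2 (0.0557).

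**Figure D2:**
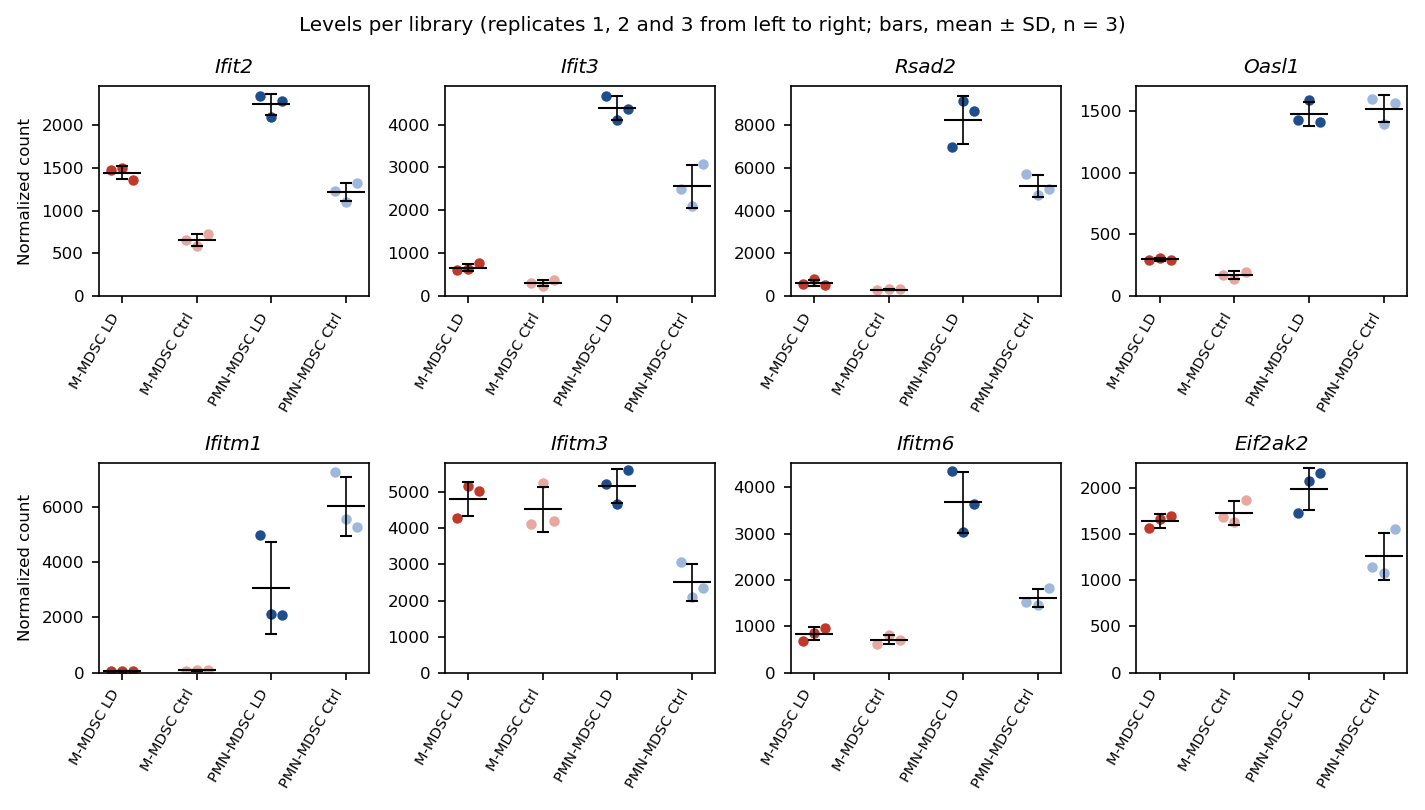
Normalized counts (y axis, from 0) of 8 genes in the 12 libraries, with points for replicates 1 to 3 in each group and black bars for the mean ± SD (n = 3). Ifit2, Ifit3 and Rsad2 are higher in LD in both populations, Oasl1 is higher in LD in M-MDSC, and Ifitm3, Ifitm6 and Eif2ak2 are higher in LD in PMN-MDSC, where Ifitm1 is lower.

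Of the 6 remaining genes, only Sp100, a nuclear body component, rose, where 2.54% of all tested genes rose in M-MDSC and 7.17% in PMN-MDSC. It had 6279, 6653 and 7926 normalized counts in PMN-MDSC LD, against 5019.9, 4299.7 and 5657 in PMN-MDSC Ctrl (0.48 ± 0.11, adjusted p = 0.0129). In M-MDSC it had 4258, 4658 and 4100.2 in LD, against 4281, 4069.6 and 4761 in Ctrl, with overlap. The PMN-MDSC call was lost without LD replicate 3 (adjusted p = 0.0549) or Ctrl replicate 2 (0.0647). Trim30a, a brake on Toll-like receptor signalling, had 2915, 3203 and 3096 in M-MDSC LD, against 3029, 2922 and 3273 in M-MDSC Ctrl. Its PMN-MDSC values were 8882, 9662 and 9688 in LD, against 11699.6, 10229.9 and 12369 in Ctrl. All PMN-MDSC LD libraries of Trim30a were lower, at -0.28 ± 0.09, just short of the threshold (adjusted p = 0.0505). It passed as lower with DESeq2 (adjusted p = 0.0223), with a minimum mean of 50 (0.0428), under TMM scaling (0.0474) and with a pseudocount of 8 (0.0493).

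Ifi27l2a, a mitochondrial protein gene, averaged 1471 ± 101 normalized counts in M-MDSC LD and 1280.1 ± 132 in M-MDSC Ctrl, and 1849.9 ± 638 in PMN-MDSC LD and 1429 ± 198 in PMN-MDSC Ctrl. Ifi35 averaged 579 ± 107 in M-MDSC LD and 517 ± 37.7 in M-MDSC Ctrl, and 513 ± 46.2 in PMN-MDSC LD and 469 ± 81.5 in PMN-MDSC Ctrl. Xaf1, which favours cell death, averaged 424 ± 78.4 in M-MDSC LD and 376 ± 32.2 in M-MDSC Ctrl, and 314 ± 29 in PMN-MDSC LD and 249.9 ± 39.8 in PMN-MDSC Ctrl. None of these 3 passed. Ifi44 had 176, 60.3 and 54.2 in M-MDSC LD, against 23.3, 21.1 and 37.6 in M-MDSC Ctrl. Its LD libraries were all higher, led by replicate 1, and the log2 difference of 1.62 ± 0.66 did not pass (adjusted p = 0.279), whereas DESeq2 gave an adjusted p of 0.031.

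**Figure D3:**
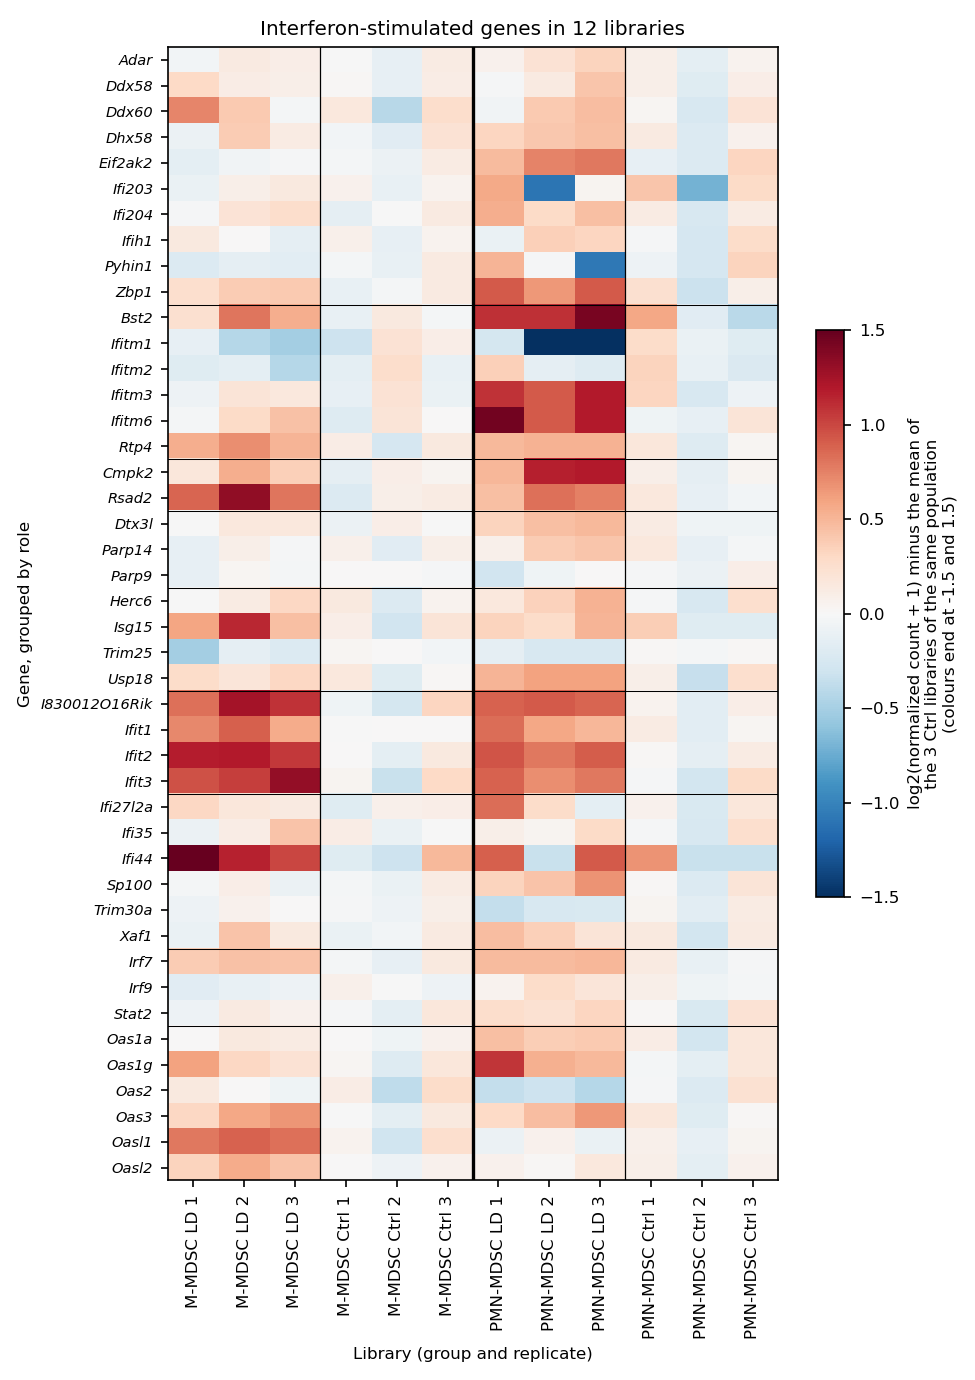
Colours show log2(normalized count + 1) minus the mean of the 3 Ctrl libraries of the same population, for 44 genes (rows, by role) in 12 libraries (columns), ending at -1.5 and 1.5. Red fills the LD columns of PMN-MDSC for most genes and those of M-MDSC for the IFIT rows, Rsad2 and Oasl1, while the column of PMN-MDSC Ctrl replicate 2 is below the Ctrl mean in every row.

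The Ctrl libraries were not alike. In PMN-MDSC Ctrl replicate 2, 0 of the 44 genes lay above the mean of the 3 Ctrl libraries, with a median log2 deviation of -0.18, and it was the lowest Ctrl library for 39 genes. Over all tested genes that library was above the Ctrl mean for 45.7%. The 3 PMN-MDSC LD libraries had medians of 0.40, 0.37 and 0.46 on the same scale, against -0.18 to 0.10 in PMN-MDSC Ctrl. The 3 M-MDSC LD libraries had medians of 0.08, 0.19 and 0.16, against -0.01, -0.11 and 0.11 in M-MDSC Ctrl, so that the groups overlapped on this measure. M-MDSC Ctrl replicate 2 was the lowest Ctrl library of its population for 28 genes. Without PMN-MDSC Ctrl replicate 2, 13 of the 44 genes rose in PMN-MDSC and 2 fell. Calls over all tested genes dropped as well, from 798 to 475 higher and from 947 to 623 lower. Without M-MDSC Ctrl replicate 2, 6 of the 44 rose in M-MDSC, and that count was 10 without M-MDSC LD replicate 1. Over all tested genes, 283 rose in M-MDSC with every library, 204 without Ctrl replicate 2 and 194 without LD replicate 1.

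The LD changes of the populations differed for 4 genes (9.09% of the 44, where 2.25% of tested genes differed in either direction). Oasl1 changed more in M-MDSC, with a difference of 0.87 ± 0.19 on the log2 scale, M-MDSC minus PMN-MDSC (adjusted p = 0.0289). Ifitm3 (-0.97 ± 0.2, adjusted p = 0.0213), Ifitm6 (-0.95 ± 0.21, adjusted p = 0.0352) and Eif2ak2 (-0.74 ± 0.18, adjusted p = 0.0482) changed more in PMN-MDSC. These 4 keep their sign with any 1 library left out, but the calls are marginal and the number past the threshold then ran from 0, without PMN-MDSC LD replicate 3, to 6, without PMN-MDSC LD replicate 1. Over all tested genes the calls numbered 150 and 824 in those fits, against 250 with every library. For the 8 genes that rose in both populations the difference ran from -0.06 to 0.33 and did not pass, with an SE of 0.13 to 0.23.

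The level of these genes also differed between the populations. In LD mice 31 of the 44 genes were lower in M-MDSC than in PMN-MDSC and 7 were higher, where 36.1% of tested genes were lower and 38.8% higher. In Ctrl mice 26 were lower and 11 higher, where 36.8% and 38.8% of tested genes were. The median log2 difference, M-MDSC minus PMN-MDSC, was -0.85 in LD and -0.79 in Ctrl over the 44 genes, against 0.10 and 0.06 over all tested genes. Of the 44, 26 were lower in M-MDSC in both treatments and 7 higher in both. How many of all tested genes were lower or higher in both was not counted. All 4 IFIT genes, both genes of the viperin locus and all 4 of the ISG15 system were lower in M-MDSC in both treatments. The scaling moves these values as a whole, since the median of all tested genes in Ctrl became 0.16 under TMM scaling and -0.13 under upper-quartile scaling, and that in LD 0.17 and -0.08.

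The largest differences toward PMN-MDSC were those of Ifitm1, I830012O16Rik, Rsad2, Ddx60 and Ifit1 in both treatments. Ifitm1 averaged 62.1 ± 9.15 normalized counts in M-MDSC LD and 3075 ± 1659.5 in PMN-MDSC LD, and 80 ± 14.7 in M-MDSC Ctrl and 6034 ± 1067 in PMN-MDSC Ctrl. That is a log2 difference of -5.49 ± 0.27 in LD (adjusted p = 2.0e-10) and -6.22 ± 0.27 in Ctrl (adjusted p = 4.7e-11). I830012O16Rik differed by -4.26 ± 0.15 in LD (adjusted p = 9.5e-12) and -4.42 ± 0.15 in Ctrl (adjusted p = 4.9e-12). Rsad2 averaged 629 ± 132 in M-MDSC LD and 8248 ± 1121 in PMN-MDSC LD, and differed by -3.72 ± 0.15 in LD (adjusted p = 2.3e-11) and -4.05 ± 0.15 in Ctrl (adjusted p = 9.7e-12). Ddx60, an RNA helicase that helps RIG-I, averaged 536 ± 139 in M-MDSC LD and 5982 ± 1091 in PMN-MDSC LD, and 415 ± 97.6 in M-MDSC Ctrl and 4944 ± 755 in PMN-MDSC Ctrl. Its differences were -3.49 ± 0.21 in LD (adjusted p = 1.4e-09) and -3.59 ± 0.21 in Ctrl (adjusted p = 9.7e-10). Ifit1 differed by -3.16 ± 0.12 in LD (adjusted p = 1.5e-11) and -3.25 ± 0.12 in Ctrl (adjusted p = 9.4e-12). The sixth was Rtp4 in LD, at -2.73 ± 0.12 (adjusted p = 6.2e-11), and Oasl1 in Ctrl, at -3.18 ± 0.13 (adjusted p = 3.3e-11).

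A small set ran the other way, led by Ifi44 and by 2 PYHIN genes of chromosome 1. Ifi44 averaged 96.8 ± 68.7 normalized counts in M-MDSC LD and 27.3 ± 8.96 in M-MDSC Ctrl, while each PMN-MDSC library held 0 or 1 read. Its fitted log2 differences of 5.56 ± 0.66 in LD (adjusted p = 2.6e-06) and 4.44 ± 0.66 in Ctrl (adjusted p = 2.6e-05) depend on the count added before taking the logarithm. Ifi203 averaged 1936 ± 166 in M-MDSC LD and 85.5 ± 44.5 in PMN-MDSC LD, and 1873 ± 126 in M-MDSC Ctrl and 90.8 ± 34.1 in PMN-MDSC Ctrl. Its log2 differences were 4.63 ± 0.34 in LD (adjusted p = 1.4e-08) and 4.43 ± 0.34 in Ctrl (adjusted p = 2.2e-08). Pyhin1 averaged 3622 ± 88.4 in M-MDSC LD and 249 ± 122 in PMN-MDSC LD, and 4067 ± 358 in M-MDSC Ctrl and 263 ± 56.2 in PMN-MDSC Ctrl. It differed by 3.99 ± 0.27 in LD (adjusted p = 6.5e-09) and 3.96 ± 0.27 in Ctrl (adjusted p = 6.7e-09), with 33.7% of its 50-base windows found in other genes. Ifi204, of the same family, was far closer between populations, at 0.35 ± 0.12 in LD (adjusted p = 0.0159) and 0.63 ± 0.12 in Ctrl (adjusted p = 2.3e-04). The LD call of Ifi204 was lost without M-MDSC LD replicate 2 or 3 (adjusted p = 0.0509 and 0.0667), without PMN-MDSC LD replicate 2 (0.0743) and under upper-quartile scaling (0.207).

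Bst2 was also higher in M-MDSC, by 1.75 ± 0.26 in LD (adjusted p = 2.1e-05) and 2.43 ± 0.26 in Ctrl (adjusted p = 7.0e-07). Ifitm3 was higher in M-MDSC in Ctrl, by 0.87 ± 0.14 (adjusted p = 5.0e-05), and did not pass in LD, at -0.1 ± 0.14 (adjusted p = 0.524). Xaf1 was higher in M-MDSC in LD, by 0.42 ± 0.17 (adjusted p = 0.032). Its call was lost without M-MDSC LD replicate 2 or 3 (adjusted p = 0.16 and 0.0622), without PMN-MDSC LD replicate 2 or 3 (0.0552 and 0.104), under upper-quartile scaling (0.192) and with the LD libraries fitted alone (0.054). Eif2ak2, Zbp1, Dhx58 and Ifitm3 passed as higher in M-MDSC in Ctrl and passed in neither direction in LD.

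Per kilobase of exon, which allows levels of different genes to be set side by side, Ifitm3 and Ifitm2 were among the 3 highest of the 44 genes in all 4 groups. Ifitm3 stood first in M-MDSC, at 7121 normalized counts per kilobase in LD and 6684 in Ctrl, followed by Ifi27l2a at 3178 in LD and 2765 in Ctrl. In PMN-MDSC the highest was Ifitm2, at 7632 in LD and 7568 in Ctrl. Ifitm3 stood at 7628 in PMN-MDSC LD and 3688 in PMN-MDSC Ctrl, and Ifitm1 at 2811 in PMN-MDSC LD and 5515 in PMN-MDSC Ctrl. Ifitm3 ranked level with Ifitm2 in PMN-MDSC LD and 3 in PMN-MDSC Ctrl, while Ifitm1 ranked 5 in LD and 2 in Ctrl. Among the IFIT genes Ifit3 was highest per kilobase, at 382 in M-MDSC LD and 179 in M-MDSC Ctrl, and at 2513 in PMN-MDSC LD and 1467 in PMN-MDSC Ctrl.

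The listed interferon genes were near silent. No gene of the receptor and JAK-STAT list, or of the 15 listed for interferon induction, passed as higher after LD. Over all tested genes 2.54% rose in M-MDSC and 7.17% in PMN-MDSC, so few rises would be looked for in lists of this size. Among the 44 genes, Irf7 rose in both populations and 3 sensors rose in PMN-MDSC. Of 12 interferon genes, among them Ifnb1, Ifna4 and Ifng, 0 reached the minimum level, and their summed level was 1.45 to 4.93 normalized counts in M-MDSC LD, 4.54 to 6.73 in M-MDSC Ctrl, 0 to 2.8 in PMN-MDSC LD and 0 to 8.16 in PMN-MDSC Ctrl. Of 13 receptor and JAK-STAT genes, 0 passed in M-MDSC, and 2 fell in PMN-MDSC, both receptor chains, where 8.51% of all tested genes fell. Ifnar1, a chain of the type I receptor, averaged 2564 ± 109.6 in PMN-MDSC LD and 3353 ± 124 in PMN-MDSC Ctrl (-0.39 ± 0.08, adjusted p = 0.00705). Ifngr1, a chain of the interferon gamma receptor, averaged 2409.6 ± 233 in PMN-MDSC LD and 3474 ± 445 in PMN-MDSC Ctrl (-0.52 ± 0.12, adjusted p = 0.0103).

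Of 15 genes listed for interferon induction, 0 passed in M-MDSC and 2 fell in PMN-MDSC, where 8.51% of all tested genes fell. The list also holds signalling genes that sense no nucleic acid, and Trex1 and Samhd1, which limit the response. Tlr7, an endosomal receptor for RNA, averaged 557 ± 72.8 in PMN-MDSC LD and 750.0 ± 86.7 in PMN-MDSC Ctrl (-0.43 ± 0.12, adjusted p = 0.0252). Tlr9, the endosomal receptor for DNA, had 71.7, 20.6 and 21 in PMN-MDSC LD, against 84.7, 51.9 and 101 in PMN-MDSC Ctrl (-1.24 ± 0.36, adjusted p = 0.0332). Tlr7 did not pass without PMN-MDSC LD replicate 2 (adjusted p = 0.0934) or Ctrl replicate 2 (0.108), or with PMN-MDSC fitted alone (0.0645). Tlr9 did not pass without PMN-MDSC LD replicate 2 or 3 (adjusted p = 0.116 and 0.123) or Ctrl replicate 1 or 3 (0.0869 and 0.137), with edgeR (0.075), with PMN-MDSC fitted alone (0.129) or with no minimum level (0.0561).

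Of 10 brakes on interferon signalling, 1 rose in M-MDSC, and 1 rose and 1 fell in PMN-MDSC. Over all tested genes 2.54% rose in M-MDSC, and 7.17% rose and 8.51% fell in PMN-MDSC. Socs1, an inhibitor of JAK kinases, had 61.6, 27.2 and 39.4 normalized counts in M-MDSC LD, against 15.6, 10.5 and 15.7 in M-MDSC Ctrl (1.49 ± 0.35, adjusted p = 0.0318). With any 1 M-MDSC library other than LD replicate 2 left out, its adjusted p was 0.0693 to 0.139, and without PMN-MDSC Ctrl replicate 2 it was 0.0539. It was 0.0724 with M-MDSC fitted alone and 0.0601 with no minimum level. Socs3, which acts mainly on cytokine receptors that signal through STAT3, had 4196, 2368 and 2188 in PMN-MDSC LD, against 7425, 6634 and 7726 in PMN-MDSC Ctrl (-1.38 ± 0.23, adjusted p = 0.0017). Ptpn11, a tyrosine phosphatase gene, averaged 1583 ± 137 in PMN-MDSC LD and 1207 ± 29.5 in PMN-MDSC Ctrl (0.39 ± 0.08, adjusted p = 0.00656).

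A list of 44 further interferon-stimulated genes, of which 42 were tested, was counted in the same way. It too was chosen with earlier results of these data known. In this further list, 3 rose and 1 fell in M-MDSC, and 11 rose and 1 fell in PMN-MDSC, with median log2 differences of 0.15 and 0.22. The shares over all tested genes were 2.54% higher and 0.468% lower in M-MDSC, and 7.17% higher and 8.51% lower in PMN-MDSC. Cxcl10, a chemokine that attracts T cells, had 169.5, 193 and 144 normalized counts in M-MDSC LD, against 35, 72.7 and 34.2 in M-MDSC Ctrl (1.89 ± 0.31, adjusted p = 0.00304). It was the largest rise of this list in M-MDSC. Znfx1 (0.39 ± 0.09, adjusted p = 0.0213) and Sp140 (0.47 ± 0.11, adjusted p = 0.0363) rose there as well. Bst1, which is less established as an interferon-stimulated gene, fell in M-MDSC (-0.81 ± 0.13, adjusted p = 0.00358). In PMN-MDSC the smallest p-values were those of Samd9l (0.86 ± 0.11, adjusted p = 3.4e-04), Ube2l6, the conjugating enzyme for ISG15 (1.17 ± 0.18, adjusted p = 9.9e-04), Sp140 (0.75 ± 0.11, adjusted p = 0.001) and Nmi (0.60 ± 0.1, adjusted p = 0.00222). Trim30d fell in PMN-MDSC (-0.66 ± 0.12, adjusted p = 0.00374). The M-MDSC call of Znfx1 was lost without LD replicate 2 or 3 or any 1 of the Ctrl libraries (adjusted p = 0.0574 to 0.0965). That of Sp140 was lost without M-MDSC LD replicate 1 or 3, any 1 of the M-MDSC Ctrl libraries or PMN-MDSC Ctrl replicate 3 (adjusted p = 0.0525 to 0.144), and with no minimum level (0.0691).

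Several markers moved with the LD groups. Over all tested genes 2.54% rose and 0.468% fell in M-MDSC, and 7.17% rose and 8.51% fell in PMN-MDSC. Library totals ran from 8906045 to 16242926 reads. In M-MDSC, 3 of 6 neutrophil markers rose (S100a8, S100a9 and Retnlg), and the summed list ran from 9267 to 38515 normalized counts in M-MDSC LD and from 5554 to 6246 in M-MDSC Ctrl, with the highest value in LD replicate 1. The 6 neutrophil markers stood in M-MDSC at 0.113% (Retnlg) to 5.76% (S100a8) of their PMN-MDSC level in LD and at 0.0708% (Mmp9) to 2.85% (Csf3r) in Ctrl. S100a9 stood at 5.22% in LD and 0.921% in Ctrl, and Cxcr2 at 0.188% in LD and 0.0857% in Ctrl. In PMN-MDSC the neutrophil sum was 506581 to 581846 in LD and 359472 to 390861 in Ctrl, with Retnlg higher and Csf3r lower in LD. Of 5 macrophage markers 3 rose in M-MDSC (C1qa, C1qc and Vcam1), with sums of 319 to 365 in M-MDSC LD and 64.5 to 138 in M-MDSC Ctrl. All 4 division markers rose in M-MDSC, with sums of 3438 to 11713 in M-MDSC LD and 1048 to 1274 in M-MDSC Ctrl, highest in LD replicate 1. None of the 4 division markers passed in PMN-MDSC, where LD replicate 1 stood apart with a sum of 9157, beside 1796 and 2772 in the other LD libraries and 2381 to 3122 in Ctrl. In PMN-MDSC, Cd14 and Ly6c2 of 6 monocyte markers rose and Csf1r fell, with the list's sum at 8878 to 9764 in PMN-MDSC LD and 9187 to 11203 in PMN-MDSC Ctrl. The B cell sum was 4.21 to 13.5 in PMN-MDSC LD and 44.7 to 112 in PMN-MDSC Ctrl, with Cd79b at 6.76, 1.47 and 0 in LD and at 22.4, 8.79 and 14.4 in Ctrl (adjusted p = 0.0215). The B cell sum was 30.5 to 62 in M-MDSC LD and 51.2 to 60.3 in M-MDSC Ctrl. The plasma cell marker Igj fell in both populations, with 1.45, 0 and 1.97 normalized counts in M-MDSC LD, against 78.5, 334 and 140.2 in M-MDSC Ctrl (adjusted p = 0.00181). In PMN-MDSC it had 13.5, 0 and 0 in LD, against 18.4, 45.7 and 20.8 in Ctrl (adjusted p = 0.0237). The 6 plasmacytoid dendritic markers, of cells that make much interferon, summed to 1379 to 1450.3 in M-MDSC LD and 1593 to 1620.0 in M-MDSC Ctrl, and to 1507 to 1607 in PMN-MDSC LD and 1969.7 to 2275 in PMN-MDSC Ctrl. Of these 6, Runx2 and Tcf4 reached the minimum level, and Runx2 fell in PMN-MDSC (-0.42 ± 0.09, adjusted p = 0.00675). Siglech was at 0 to 2.94 and Klk1 at 0 over all 12 libraries. The part of the cells these markers stand for in the results was not tested.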

How the data were processed

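The authors deposited 1 table of 23479 genes in 12 libraries (4 groups of 3), with values in the unit signal: each normalized count equals a gene's reads over a library-wide size factor. The values show this: 100% were whole multiples of their library's smallest value, within 0.001 reads, so whole reads were recovered. Per the labels, libraries were made from 100 ng of total RNA with ribosomal RNA depletion; strandedness is not stated, so reads from overlapping antisense genes cannot be told apart. Per the submitters' processing notes, the build was mm10 and the tools named are HTSeq 0.6.1, STAR 2.5.3a and DESeq2, with no roles given. Totals ran from 8906045 to 16242926 reads, and reads carry no molecular identifiers.

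Changes were tested with limma 3.58.1 (R 4.3.3) on log2(normalized count + 1), which understates changes of low genes, for 11122 genes with a mean of at least 10, fitting group means (8 residual degrees of freedom) and moderating variances along their trend with level. The two-sided p-values were adjusted by Benjamini-Hochberg across all tested genes of each of 5 comparisons (threshold 0.05). On counts simulated for LD against Ctrl in M-MDSC (11115 genes tested), this test recovered 73.5% of 2-fold and 100% of 4-fold changes. The simulation gave every gene the same relative spread beyond sampling noise and changed only genes above a minimum M-MDSC Ctrl level. The spread in these libraries differs by gene, so the rates do not measure what the test could find here. Alternatives were pseudocounts of 0.5 and 8, no minimum or a mean of 50, TMM and upper-quartile scaling, the recovered reads tested with DESeq2 1.42.0 (Wald) or edgeR 4.0.16 (quasi-likelihood), a replicate block, each population or treatment alone, and each of the 12 libraries left out.

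The 44 genes, the other lists and the tests were chosen with earlier results of these data known. Every gene of the list is named. Those past the threshold after LD or in the difference between populations have full statistics, as do the 6 largest differences each way between populations, up to 4 genes of each further list per comparison, and in each role group the gene with the highest mean. Ccr2, Cxcr2, Isg15's DESeq2 value and the values of Trim30a under other settings were added after their values were seen. Replicates of a group differed beyond sampling noise in every pair, with a chi-square of 7.88 to 31.9 per degree of freedom. Gene spans, promoters and names are from RefSeq (GRCm38.p6; 42 of 44 symbols current, the rest matched as synonyms), and exon lengths and transcript windows from GENCODE M21. Python 3.11.15, numpy 2.4.6, pandas 2.3.3 and matplotlib 3.10.9 were used for these and for the figures.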

Additional observations from a re-analysis of the deposited data

Results flagged for a closer look

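The LD change differed between the populations, by the test of the difference itself, for 4 of the 44 genes and for 3 genes of the other lists. Oasl1 had a difference of 0.87 (M-MDSC minus PMN-MDSC, log2, adjusted p = 0.0289), Ifitm3 of -0.97 (adjusted p = 0.0213), Ifitm6 of -0.95 (adjusted p = 0.0352) and Eif2ak2 of -0.74 (adjusted p = 0.0482). With 1 library left out in turn, Ifitm3 lost its call without M-MDSC Ctrl replicate 2 (adjusted p = 0.0606), PMN-MDSC LD replicate 3 (0.0541) or replicate 2 or 3 of PMN-MDSC Ctrl (0.0584 and 0.0569). Oasl1 lost it without M-MDSC LD replicate 2 or 3 (0.0524 and 0.0589), M-MDSC Ctrl replicate 1 (0.0517), PMN-MDSC LD replicate 3 (0.0649) or replicate 1 or 3 of PMN-MDSC Ctrl (0.0632 and 0.0695). Ifitm6 kept it without M-MDSC LD replicate 3, M-MDSC Ctrl replicate 1, replicate 1 or 2 of PMN-MDSC LD, or replicate 3 of PMN-MDSC Ctrl, and otherwise had adjusted p of 0.0524 to 0.0947. Eif2ak2 kept it without replicate 1 of PMN-MDSC LD or replicate 3 of PMN-MDSC Ctrl, and otherwise had adjusted p of 0.0742 to 0.119. With no minimum level, Oasl1, Ifitm6 and Eif2ak2 fell short (adjusted p = 0.0522, 0.0673 and 0.0906). Eif2ak2 also did so with a pseudocount of 0.5 (0.0501), with edgeR (0.0502) and under upper-quartile scaling (0.0605).

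Samd9l, an antiviral gene of the further list, had a difference of -0.73 (adjusted p = 0.0304), with 3012 ± 346 normalized counts in M-MDSC LD and 2747 ± 333 in M-MDSC Ctrl, and 11584 ± 803 in PMN-MDSC LD and 6373 ± 576 in PMN-MDSC Ctrl (SD, n = 3 each). It kept the call without replicate 1 of any of the 4 groups, and otherwise had adjusted p of 0.0501 to 0.0819. Slfn5, a schlafen gene, had a difference of -0.66 (adjusted p = 0.0475), with 7916 ± 981 in M-MDSC LD and 8830.2 ± 473 in M-MDSC Ctrl, and 13814 ± 484 in PMN-MDSC LD and 9868 ± 1285 in PMN-MDSC Ctrl. It kept the call without M-MDSC LD replicate 2 or PMN-MDSC LD replicate 1, and otherwise had adjusted p of 0.053 to 0.116. Socs3 had a difference of 1.33 (adjusted p = 0.0482), with 955 ± 261 in M-MDSC LD and 977 ± 199 in M-MDSC Ctrl, and 2917 ± 1111 in PMN-MDSC LD and 7262 ± 564 in PMN-MDSC Ctrl. It kept the call without M-MDSC LD replicate 1 or PMN-MDSC LD replicate 1, and otherwise had adjusted p of 0.051 to 0.121. With no minimum level, Samd9l, Slfn5 and Socs3 fell short (adjusted p = 0.0559, 0.0821 and 0.0896). Slfn5 also did so with edgeR (0.0516), under upper-quartile scaling (0.0641) and with a replicate block (0.0645). Socs3 also did so with a pseudocount of 0.5 (0.0509), under TMM scaling (0.0509), with edgeR (0.0552) and with a replicate block (0.0533).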

How the results depend on the processing

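Of 1793 combinations of a named result and an alternative, 1648 kept their direction and their side of the threshold, 145 kept their direction but no longer passed, and 0 turned round. Many of these could not turn round, since leaving out a library outside a comparison keeps its log2 difference as it was. The number of the 44 genes past the threshold was 10 in M-MDSC after LD (9 to 12 with other settings, 6 to 10 with 1 library left out, the lowest without M-MDSC Ctrl replicate 2). It was 21 in PMN-MDSC (20 to 22, and 15 to 23). Over all tested genes, leaving out 1 library gave 192 to 548 calls in M-MDSC and 889 to 2163 in PMN-MDSC, against 335 and 1745. The difference of the LD changes gave 4 genes (1 with no minimum level, otherwise 3 or 4, and 0 to 6 with 1 library left out). Between the populations it gave 38 in LD (37 to 39, and 33 to 39) and 37 in Ctrl (35 to 39, and 36 to 38). Without replicate 1 of both LD groups, an alternative chosen after seeing the data, 11 genes passed in M-MDSC, 25 in PMN-MDSC and 6 in the difference.

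The labels do not say whether libraries with the same number share a mouse, and the numbers were not taken to pair them: deviations of same-numbered libraries correlated by 0.21, 0.12 and 0.07 between the LD groups of the populations and by -0.04, 0.05 and 0.13 between the Ctrl groups. With a replicate block the counts were 10, 21 and 4 after LD and in the difference, and 39 and 37 between the populations. With the number within each treatment as a block, an alternative chosen after seeing the data, the difference again gave 4 of the 44 genes, while its count over all tested genes was 536, against 250 without the block. With 3 libraries a group, a 2-fold change could be missed, so a gene that did not pass is not shown to be unchanged.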
